A study of Mus musculus with 24 samples.

Results

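Transcripts of titin and of 9 proteins that work with it at the ends and the centre of the sarcomere were followed in mouse hearts after ischemia-reperfusion (I/R), in which a coronary artery is tied and later released. The 10 genes were Ttn, the Z-disc and LIM-domain genes Ldb3, Myoz2, Csrp3, Fhl1 and Fhl2, the Xin-repeat genes Xirp1 and Xirp2, and the M-band genes Myom1 and Myom2. They were taken by name from a 2-colour Agilent array, with the brightest probe of each gene by mean heart signal. All 10 were measured, out of 11430 genes and other features tested. The array named 8 of them by their present symbol, Xirp1 was found under the older symbol Cmya1, and Xirp2 under Cmya3 through its accession. They had 25 probes, of which 22 passed the filter on dim spots, and the chosen probes had heart signal clearly over background on each of the 24 arrays.

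Titin is a giant elastic protein that runs from the Z-disc, where the ends of the sarcomeres meet, to the M-band at the sarcomere's centre. Its I-band part acts as a spring, and it carries docking sites for LIM-domain and signalling proteins at the Z-disc, along the spring and near the M-band. Such proteins are known in heart muscle as parts of mechanical sensing, and mutations in many of them cause cardiomyopathy.

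The hearts came from wild-type (MuRF1+/+) mice and strain-matched MuRF1 Tg+ mice aged 12 to 16 weeks, which carry a transgene for MuRF1, a muscle ubiquitin ligase that binds titin near the M-band. Mice of each genotype had sham surgery or I/R, and tissue above and below the ligation site of the left anterior descending artery (or below the site it would have had) was hybridised separately. This gave 8 groups of 3 arrays, 1 per genotype, surgery and piece, with 3 biological replicates per genotype and surgery and 2 pieces from each heart. Heart RNA carried Cy5 and a pool of whole day 1 pups (C57BL/6) carried Cy3 on every array, so each value is a log2 ratio of heart to pup pool for a single probe, and levels of different genes are not compared. The sources used here do not give what drives the transgene, the strain of the hearts, or how long ligation and reperfusion lasted.

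The heart signal was weaker after I/R. The share of spots with Cy5 well above background was 34.6% to 43.3% for sham and 9.90% to 38.3% for I/R. On 5 I/R arrays the share was under 25%: replicates 1 and 2 of wild-type tissue above, replicate 1 of wild-type tissue below, and in Tg+ replicates 2 and 3 below. They are called the weak arrays here, and values without them are given beside the results they moved most. Leaving them out keeps a single I/R array in wild type above and in Tg+ below, so effect sizes alone are given there. Over hearts, wild-type I/R heart 1 then drops out, and wild-type heart 2 and Tg+ hearts 2 and 3 keep 1 piece each. Trim63, which encodes MuRF1, did not check the genotype labels. Its group means lay between 2.28 and 2.36 in all 4 sham groups, and no source used here says whether the transgene holds the probe's sequence. All 8 ventricular cardiomyocyte markers were detected, and their mean log2 ratio had a median of 3.86 in sham and 3.34 in I/R pieces. The 4 atrial markers averaged -1.93 to 1.88 in sham and -1.67 to 4.14 in I/R pieces, and stood highest in tissue above the ligation (2.63 to 2.68 in Tg+ I/R, -0.59 to 4.14 in wild-type I/R). In bulk tissue, fewer cardiomyocytes and less of a transcript per cardiomyocyte cannot be told apart.

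Promoters are shown for the 3 genes whose I/R change over whole hearts passed the test under every setting tried, Fhl1, Fhl2 and Ldb3. Each is 250 bases before to 50 bases after an annotated start, from RefSeq on the GRCm38.p6 build, and capitals mark a CArG box (the binding motif of serum response factor) or a MEF2 motif, both searched on both strands. Neither motif overlaps the other in these windows.
Fhl1 promoter window 1, chrX:56779433-56779732, plus strand: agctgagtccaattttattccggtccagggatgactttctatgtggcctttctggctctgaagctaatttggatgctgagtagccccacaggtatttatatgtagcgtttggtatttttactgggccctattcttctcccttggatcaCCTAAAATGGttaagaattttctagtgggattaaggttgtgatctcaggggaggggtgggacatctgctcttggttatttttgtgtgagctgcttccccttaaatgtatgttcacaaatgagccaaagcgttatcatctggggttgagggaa
Fhl1 promoter window 2, chrX:56786277-56786576, plus strand: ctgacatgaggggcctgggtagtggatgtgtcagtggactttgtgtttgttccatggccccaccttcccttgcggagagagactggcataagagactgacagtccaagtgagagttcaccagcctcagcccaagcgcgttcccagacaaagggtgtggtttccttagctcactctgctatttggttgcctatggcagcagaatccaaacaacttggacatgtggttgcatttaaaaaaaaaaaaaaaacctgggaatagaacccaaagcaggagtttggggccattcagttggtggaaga
Fhl2 promoter window 1, chr1:43196712-43197011, minus strand: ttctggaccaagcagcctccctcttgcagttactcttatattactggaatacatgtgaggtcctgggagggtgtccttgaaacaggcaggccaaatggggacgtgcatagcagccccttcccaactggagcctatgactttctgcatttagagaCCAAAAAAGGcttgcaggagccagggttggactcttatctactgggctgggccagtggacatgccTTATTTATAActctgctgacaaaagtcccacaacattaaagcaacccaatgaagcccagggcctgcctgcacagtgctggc
Fhl2 promoter window 2, chr1:43163912-43164211, minus strand: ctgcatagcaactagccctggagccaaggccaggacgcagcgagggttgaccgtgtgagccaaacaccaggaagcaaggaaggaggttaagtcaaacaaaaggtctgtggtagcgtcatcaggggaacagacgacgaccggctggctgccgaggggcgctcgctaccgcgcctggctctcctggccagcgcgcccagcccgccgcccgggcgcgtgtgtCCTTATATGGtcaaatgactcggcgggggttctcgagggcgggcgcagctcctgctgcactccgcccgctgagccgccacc
Ldb3 promoter, chr14:34588632-34588931, minus strand: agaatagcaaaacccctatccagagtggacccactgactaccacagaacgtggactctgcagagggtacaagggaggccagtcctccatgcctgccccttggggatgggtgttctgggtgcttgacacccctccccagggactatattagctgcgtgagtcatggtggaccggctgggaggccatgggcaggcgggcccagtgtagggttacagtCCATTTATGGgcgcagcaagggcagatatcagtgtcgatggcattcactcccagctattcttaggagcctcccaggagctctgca
The CArG box in Fhl1 window 1 lay at -102 to -93 and that in Fhl2 window 2 at -31 to -22, counted from 0 at the annotated start. Fhl1 window 2 held none of the motifs searched. Ldb3 held its CArG box at -35 to -26, and a second annotated Ldb3 window overlaps this one and holds the same letters. Of the 10 genes, 8 had entries in the RefSeq table, with 12 windows. A CArG box was found in 6 windows of 4 genes (Fhl1, Fhl2, Ldb3 and Myom1) and in 1.63% of all 32851 windows of this length. MEF2 motifs were found in 4 windows of 4 genes (Ttn, Fhl2, Xirp2 and Myoz2) and in 3.19% of all windows. An AP-1 motif (TGANTCA, both strands) was in 4 windows of 3 genes and in 7.81% of all, the MCAT motif (CATTCC, both strands) in 1 window and in 14.7% of all, and the E-box CAGCTG in 1 window and in 16.3% of all. These are matches of letters and nothing was measured on binding.

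The question was how these sarcomere genes changed with I/R in each genotype and piece. Same-numbered pieces of a genotype and surgery were averaged as 1 heart, although the sources do not say that the numbers match the pieces. Over these heart means Fhl1 rose 6.12-fold and 5 of the 10 genes fell: Fhl2, Ldb3, Ttn, Xirp2 and Myom1, by 1.40 to 1.89-fold. Csrp3, Xirp1, Myoz2 and Myom2 did not pass the test. Of all features tested, 51.0% passed in this comparison (25.6% higher and 25.5% lower), so the count of 6 is near what the array as a whole showed. With median centring of each array in place of loess, 1.12% of called features were higher, beside 50.1%, and the median of all features moved by -0.40. Under it Fhl1 still rose, by 0.94 (adjusted p = 0.0371). The median difference of the 10 genes was -0.38 on the log2 scale, beside -0.00127 over all features. Tests here and below are limma fits over all features with Benjamini-Hochberg adjustment, called at an adjusted p under 0.05, and values after ± are standard errors of a log2 difference.

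**Figure D1:**
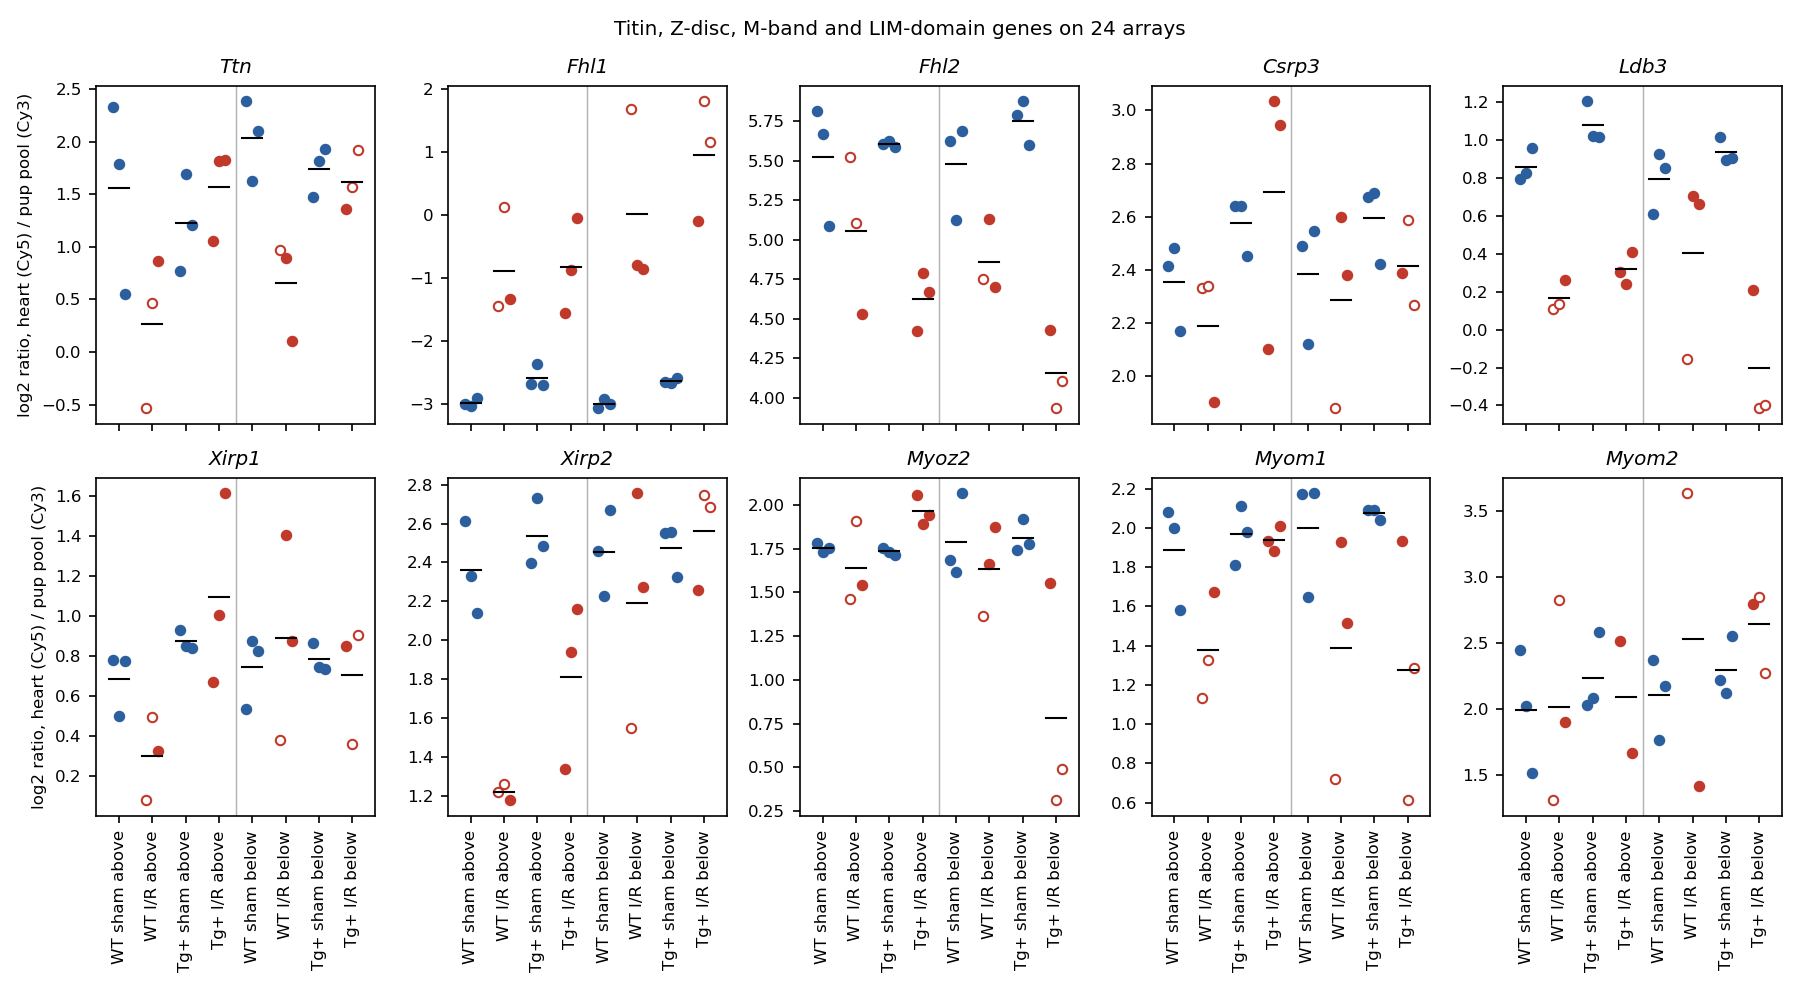
Log2 ratio of heart to pup pool (vertical axes, each to its own scale) of the 10 genes on each array, by group along the horizontal axis; blue points are sham, red points I/R, open points the 5 weak arrays, and bars group means. Every I/R point of Fhl1 lies above every sham point, and the lowest Myoz2 points are 2 weak arrays of Tg+ I/R tissue below the ligation.

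FHL1 is a LIM-only muscle protein that binds the titin spring and takes part in hypertrophic signalling. On sham arrays Fhl1 was low and tight, at -3.00, -3.03 and -2.90 above the site in wild type and -3.06, -2.92 and -3.00 below it. In Tg+ sham hearts the values were -2.68, -2.36 and -2.69 above and -2.65, -2.67 and -2.58 below. All 6 Tg+ sham arrays were thus higher than all 6 wild-type sham arrays, which held upward for 0.77% of features. The arrays are pieces of 3 hearts per genotype. Heart means, 3 against 3, were also apart, which held upward for 6.75% of features. The fit, which shares its spread with the more variable I/R groups, gave Tg+ minus wild type differences of 0.40 ± 0.56 above and 0.36 ± 0.56 below (both adjusted p = 1.00).

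After I/R the wild-type values of Fhl1 were -1.44, 0.13 and -1.33 above the ligation and 1.69, -0.79 and -0.86 below it. The Tg+ values were -1.55, -0.86 and -0.05 above and -0.09, 1.81 and 1.17 below. All 12 I/R arrays were higher than all 12 sham arrays, as were 2.46% of features, and the I/R arrays spread over more than the sham arrays did. Heart means, 6 against 6, were also apart, which held upward for 11.4% of features. Fhl1 rose by 2.10 ± 0.56 in wild type above (adjusted p = 0.0191), 3.01 ± 0.56 in wild type below (adjusted p = 0.00427), 1.75 ± 0.56 in Tg+ above (adjusted p = 0.0402) and 3.59 ± 0.56 in Tg+ below (adjusted p = 0.000267). These are 4.28-, 8.05-, 3.37- and 12.1-fold. With median centring in place of loess all 4 calls were lost, with 0.42, 1.52, 0.86 and 0.98 in the same order (adjusted p = 0.589, 0.403, 0.344 and 0.208). Over whole hearts the rise was 2.61 ± 0.25 (adjusted p = 3.45e-05).

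The highest Fhl1 values, 1.81, 1.69 and 1.17, were on weak arrays, whose median was 1.17 against -0.86 on the other 7 I/R arrays. Without the weak arrays the rise was 2.54 in Tg+ below and 1.65 in wild type above, each resting on a single I/R array. It was 2.17 in wild type below and 2.03 over the hearts left, both still called. The calls above the ligation did not hold in every fit lacking 1 array. In wild type the call was lost without sham replicate 1, sham replicate 2 or I/R replicate 2 (adjusted p up to 0.114). In Tg+ it was lost without any sham replicate or I/R replicates 2 or 3 (adjusted p up to 0.185). The rise in these fits ran from 1.59 to 2.38 in wild type and from 1.37 to 2.12 in Tg+. Within a slide that held both surgeries, Fhl1 was 1.56, 2.14, 1.82 and 4.39 higher on the I/R array (wild type above and below, Tg+ above and below). Neither genotype by surgery interaction passed, with -0.34 ± 0.79 above (adjusted p = 0.989) and 0.58 ± 0.79 below (adjusted p = 0.739). In Tg+ the rise was larger below than above by 1.84 ± 0.79, which also did not pass (adjusted p = 0.776).

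FHL2 is the most heart-enriched of the related LIM-only proteins, and it anchors metabolic enzymes at the titin spring. Sham arrays read 5.82, 5.67 and 5.09 (wild type above), 5.62, 5.12 and 5.69 (wild type below), 5.60, 5.63 and 5.58 (Tg+ above) and 5.79, 5.88 and 5.60 (Tg+ below). I/R arrays read 5.52, 5.11 and 4.53 (wild type above), 4.75, 5.13 and 4.70 (wild type below), 4.42, 4.79 and 4.67 (Tg+ above) and 4.43, 3.93 and 4.10 (Tg+ below). In Tg+ hearts the I/R arrays were all lower than the sham arrays in both pieces, as were 23.6% of features above and 26.3% below, while in wild type they overlapped in both.

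Fhl2 fell by 0.98 ± 0.22 in Tg+ above (adjusted p = 0.00752) and by 1.60 ± 0.22, or 3.03-fold, in Tg+ below (adjusted p = 0.000106). Wild-type hearts gave -0.47 ± 0.22 above the ligation (adjusted p = 0.155) and, below it, -0.62 ± 0.22 (adjusted p = 0.111). The genotypes were not shown to differ in this, since the interactions of -0.51 ± 0.31 above (adjusted p = 0.734) and -0.98 ± 0.31 below (adjusted p = 0.331) did not pass. All 6 I/R heart means, 4.36 to 5.14, lay below all 6 sham heart means, 5.39 to 5.75, as was so downward for 11.8% of features. The heart-mean fall was 0.92 ± 0.09 (adjusted p = 5.45e-05). The fall without the weak arrays was 1.32 in Tg+ below, on a single I/R array. Over the hearts left it was 0.84 and still called. Between the I/R groups, Tg+ minus wild type was -0.43 ± 0.22 above (adjusted p = 0.400) and -0.71 ± 0.22 below (adjusted p = 0.0838).

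LDB3, also called Cypher or ZASP, is a PDZ-LIM protein that holds alpha-actinin in the Z-disc. Ldb3 on sham arrays was 0.80, 0.82 and 0.96 in wild type above, 0.61, 0.93 and 0.85 in wild type below, 1.20, 1.02 and 1.01 in Tg+ above and 1.02, 0.89 and 0.91 in Tg+ below. On I/R arrays it was 0.11, 0.14 and 0.26 in wild type above, -0.15, 0.70 and 0.66 in wild type below, 0.31, 0.24 and 0.41 in Tg+ above and 0.21, -0.42 and -0.40 in Tg+ below. Only wild-type tissue below the ligation showed overlap between the surgeries, on replicates 2 and 3. In the other comparisons all I/R arrays were lower, as were 17.2% of features in wild type above, 23.6% in Tg+ above and 26.3% in Tg+ below.

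Ldb3 fell by 0.69 ± 0.18 in wild type above (adjusted p = 0.0162), 0.76 ± 0.18 in Tg+ above (adjusted p = 0.00916) and 1.14 ± 0.18, or 2.21-fold, in Tg+ below (adjusted p = 0.00028). The difference in wild type below was -0.39 ± 0.18 (adjusted p = 0.219). The wild-type call above was lost without sham replicate 3 or I/R replicates 1 or 2 (adjusted p up to 0.0597). All 5 weak arrays (-0.42 to 0.14) were lower than the other 7 I/R arrays (0.21 to 0.70). Without the weak arrays Ldb3 fell by 0.73 in Tg+ below and by 0.60 in wild type above, each on a single I/R array. Over hearts the fall was then 0.48 in place of 0.75 ± 0.09 (adjusted p = 0.000145), and both were called. A further pair of Ldb3 probes passed the filter, and over hearts these fell by 0.70 ± 0.08 and 1.02 ± 0.09.

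**Figure D2:**
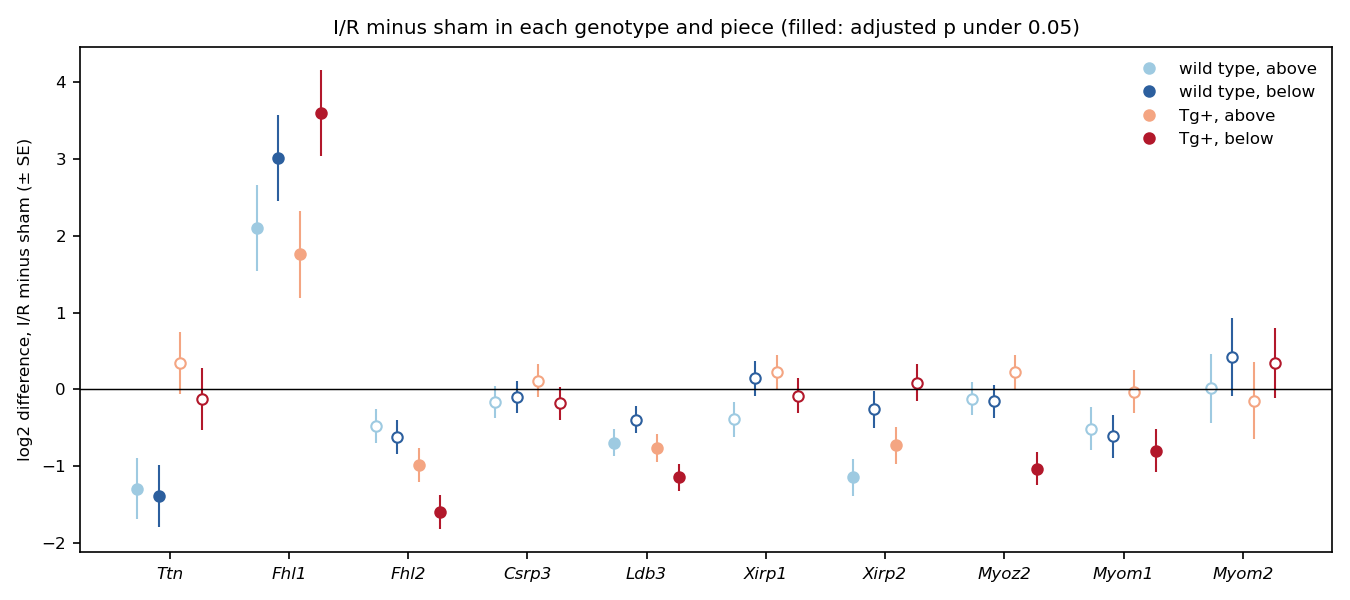
Log2 difference, I/R minus sham, of the 10 genes (vertical axis, ± SE) in each genotype and piece (colours); filled points passed an adjusted p under 0.05. Fhl1 stands at 1.75 to 3.59 in all 4 comparisons, and Fhl2 and Ldb3 reach their lowest values, -1.60 and -1.14, in Tg+ tissue below the ligation.

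Titin itself was measured by 9 probes, which allows its change to be followed along the gene. The probes are numbered from the 5' end by the array's own coordinates, whose build is not named, so distances alone are given: probe 9 lay 261.1 kb downstream of probe 1. The sequences of 6 probes are shown because the results differ between them; those of probes 3, 8 and 9 are not shown. Capitals are not used, and probe 5 spans 352 bases of the genome for 60 bases of probe, so that it crosses a splice junction. Probe 9 is listed with a span of 43 bases for its 60, so its match to the genome is incomplete in the array's own coordinates.
Ttn probe 1: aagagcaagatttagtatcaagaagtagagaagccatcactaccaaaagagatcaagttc
Ttn probe 2: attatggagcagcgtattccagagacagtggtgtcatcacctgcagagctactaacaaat
Ttn probe 4: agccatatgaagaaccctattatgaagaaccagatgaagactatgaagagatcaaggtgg
Ttn probe 5: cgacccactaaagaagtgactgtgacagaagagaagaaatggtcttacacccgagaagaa
Ttn probe 6: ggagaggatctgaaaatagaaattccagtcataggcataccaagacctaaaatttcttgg
Ttn probe 7: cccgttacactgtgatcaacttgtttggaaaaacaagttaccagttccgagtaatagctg
Probe 2, 19.6 kb from probe 1, was the brightest and stands for the gene in the comparisons across all features.

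With probe 2, Ttn on sham arrays was 2.33, 1.78 and 0.55 in wild type above, 2.38, 1.63 and 2.10 in wild type below, 0.77, 1.69 and 1.20 in Tg+ above and 1.47, 1.81 and 1.92 in Tg+ below. On I/R arrays it was -0.54, 0.47 and 0.86 in wild type above, 0.97, 0.89 and 0.10 in wild type below, 1.05, 1.81 and 1.82 in Tg+ above and 1.36, 1.57 and 1.91 in Tg+ below. Wild-type hearts after I/R were low, and Tg+ hearts after I/R lay within the range of the Tg+ sham hearts or just outside it.

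Ttn fell by 1.29 ± 0.40 in wild type above (adjusted p = 0.0398) and 1.38 ± 0.40 in wild type below (adjusted p = 0.0492). Tg+ hearts gave 0.34 ± 0.40 above the ligation (adjusted p = 0.570) and, below it, -0.12 ± 0.40 (adjusted p = 0.829). The wild-type calls were fragile: the one below did not pass in any of 6 fits lacking 1 replicate (adjusted p up to 0.171), and the one above without sham replicates 1 or 2 or I/R replicates 1 or 2 (up to 0.176). Without the weak arrays the wild-type difference above was -0.69, on a single I/R array. The one below, with I/R replicates 2 and 3 kept, was then -1.54 and passed (adjusted p = 0.0214). Over whole hearts the fall was 0.61 ± 0.18 (adjusted p = 0.0173), lost without wild-type sham below replicate 3 or I/R above replicate 1 (adjusted p up to 0.141) and without the weak arrays (-0.49, adjusted p = 0.0624).

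Whether the genotypes differed in the titin response was tested directly. The genotype by surgery interaction of probe 2 was 1.63 ± 0.57 above (adjusted p = 0.404) and 1.26 ± 0.57 below (adjusted p = 0.447), so a difference between genotypes was not shown, and the 95% intervals ran from 0.44 to 2.82 and from 0.07 to 2.45. Between the I/R groups, Tg+ minus wild type was 1.30 ± 0.40 above (adjusted p = 0.140) and 0.96 ± 0.40 below (adjusted p = 0.154). Each Tg+ I/R array was higher than each wild-type one in both pieces, as were 7.09% of features above and 5.20% below.

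The other titin probes were read on the same RNA samples and are no replicates. All 9 probes gave negative I/R differences in wild type, from -1.64 to -0.24 above and from -1.60 to -0.45 below. In a fit of all probes 6 of 9 passed in each piece. Probe 6, with a mean heart signal of 94.9, passed in wild type above, where its signal after I/R was well above background on 1 of 3 arrays. Its fall there was thus read near background. Below the ligation after I/R it was well above background on 2 of 3 arrays in each genotype. In Tg+ above, 5 of 9 were positive and none passed (-0.64 to 0.72). In Tg+ below, 4 of 9 passed downward, probes 1, 3, 6 and 8, and the range was -1.24 to 0.44. The interaction was positive on all 9 probes above (0.35 to 1.77) and all 9 below (0.00045 to 1.87), and none passed.

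Probes thus disagreed on the Tg+ hearts. Probe 8, 260.6 kb downstream, was -1.24 ± 0.23 in Tg+ below (adjusted p = 0.00107), while probe 9, the next downstream, was 0.44 ± 0.46 (adjusted p = 0.462), with the incomplete match given above. Over whole hearts 7 of 9 probes fell, from -1.18 for probe 8 to -0.47 for probe 4, and probes 5 and 9 did not pass (-0.11 and -0.33). Probe 5 was the dimmest of the 9, with a mean heart signal of 69.7. Probes that passed over whole hearts ran from probe 1 to probe 8, with probe 4 at 101.7 kb between them.

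**Figure D3:**
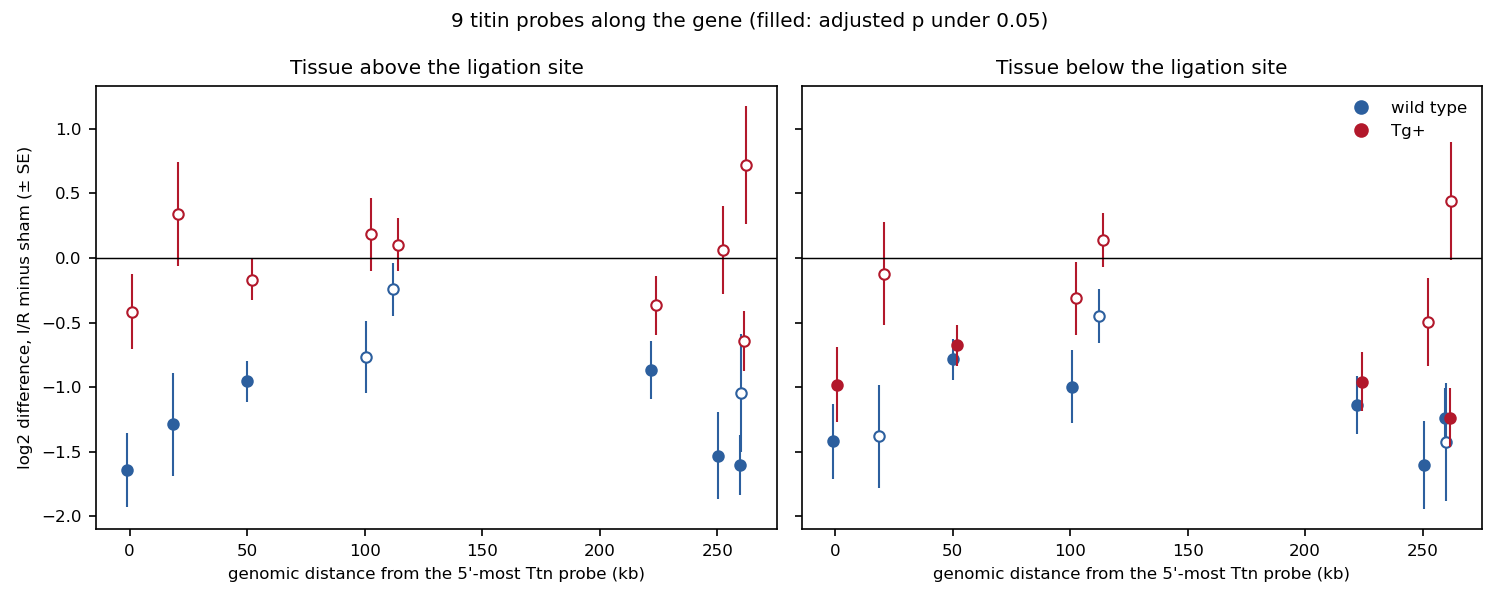
Log2 difference, I/R minus sham (vertical axis, ± SE), of the 9 titin probes against their distance from the 5'-most probe (kb), above (left) and below (right) the ligation, in wild type (blue) and Tg+ (red); filled points passed an adjusted p under 0.05 in a fit of all probes. Wild-type points lie below 0 at every probe, and the Tg+ points above the ligation lie from -0.64 to 0.72. Probe 2 in wild type below is open here (adjusted p = 0.0507) and passed in the fit of 1 probe per gene.

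XIRP1 and XIRP2 are Xin-repeat proteins that bind actin at the intercalated disc, where cardiomyocytes join, and link it to the adhesion machinery. Xirp2 on sham arrays was 2.61, 2.33 and 2.14 in wild type above, 2.46, 2.23 and 2.67 in wild type below, 2.40, 2.73 and 2.48 in Tg+ above and 2.55, 2.56 and 2.32 in Tg+ below. On I/R arrays it was 1.22, 1.26 and 1.18 in wild type above, 1.55, 2.76 and 2.27 in wild type below, 1.34, 1.94 and 2.16 in Tg+ above and 2.26, 2.75 and 2.69 in Tg+ below. The arrays from above the ligation were low and all below the sham arrays in both genotypes, as were 17.2% of features in wild type and 23.6% in Tg+, while those from below overlapped with sham in both.

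Xirp2 fell by 1.14 ± 0.24, or 2.21-fold, in wild type above (adjusted p = 0.00481) and by 0.73 ± 0.24 in Tg+ above (adjusted p = 0.0453). Below the ligation the differences were -0.26 ± 0.24 in wild type (adjusted p = 0.565) and 0.09 ± 0.24 in Tg+ (adjusted p = 0.791). The Tg+ call was lost without any sham replicate or I/R replicates 1 or 2 (adjusted p up to 0.174). The pieces were not shown to differ, as the piece by surgery interactions were 0.88 ± 0.34 in wild type (adjusted p = 1.00) and 0.81 ± 0.34 in Tg+ (adjusted p = 0.772). The atrial markers were also highest on I/R arrays from above the ligation, and their part in the Xirp2 result was not tested.

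A second Xirp2 probe, with a mean heart signal of 266, gave another picture in Tg+ below. It read -1.22 ± 0.30 there (adjusted p = 0.00613), beside the 0.09 of the brightest probe, with -1.40 and -1.24 above the ligation in wild type and Tg+. The third and dimmest probe gave -0.26 ± 0.14 in Tg+ below (adjusted p = 0.158). Its heart signal there after I/R was well above background on 0 of 3 arrays, as in wild type above. It passed the filter through the sham groups alone. The array thus does not settle Xirp2 in Tg+ tissue below the ligation. Over whole hearts the 2 brighter probes fell, by 0.51 ± 0.13 and 1.05 ± 0.16. The third fell by 0.33 ± 0.07, with I/R signal near background in those groups, and is no separate support. The call of the brightest was lost without wild-type I/R above replicate 2 (adjusted p = 0.155) and without the weak arrays (adjusted p = 0.0834).

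Xirp1 ran from 0.50 to 0.93 on sham arrays (median 0.80) and from 0.08 to 1.61 on I/R arrays (median 0.76). The wild-type I/R arrays above the ligation (0.08, 0.49 and 0.32) were all lower than their sham group (0.78, 0.50 and 0.78), as were 17.2% of features, yet the difference of -0.39 ± 0.23 did not pass (adjusted p = 0.249). Over hearts it was -0.03 ± 0.12 (adjusted p = 0.879).

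Myozenin 2, or calsarcin-1, tethers the phosphatase calcineurin to the Z-disc. Muscle LIM protein, encoded by Csrp3, is a Z-disc protein of mechanical sensing. Their chosen probes cross splice junctions, spanning 7042 and 1915 bases of the genome for 60 bases of probe, so they read spliced RNA and are shown for that reason.
Csrp3 probe: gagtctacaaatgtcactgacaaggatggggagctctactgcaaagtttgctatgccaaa
Myoz2 probe: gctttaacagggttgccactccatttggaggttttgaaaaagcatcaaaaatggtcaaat
Myoz2 on sham arrays lay between 1.61 and 2.07 (median 1.75). After I/R it was 1.46, 1.91 and 1.54 in wild type above, 1.36, 1.66 and 1.88 in wild type below and 2.06, 1.89 and 1.94 in Tg+ above. In Tg+ below it was 1.55, 0.31 and 0.49.

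Myoz2 fell by 1.03 ± 0.22 in Tg+ below (adjusted p = 0.00244), with differences of -0.12 ± 0.22, -0.15 ± 0.22 and 0.23 ± 0.22 in wild type above and below and in Tg+ above (adjusted p = 0.732, 0.723 and 0.481). In Tg+ I/R tissue it was lower below than above by 1.18 ± 0.22 (adjusted p = 0.0196), where 0.481% of features passed. It was also the single gene of the 10 called between genotypes, 0.85 ± 0.22 lower in Tg+ than in wild type below after I/R (adjusted p = 0.0437), where 2.92% of features passed (1.71% lower). Both low values were on weak arrays. Without the weak arrays the Tg+ below group had 1 I/R array left, and the 3 differences shrank to -0.26, -0.41 and -0.22. With slide as a block none of the 3 passed (adjusted p = 0.0588, 0.295 and 0.561).

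The Myoz2 call between genotypes was also lost without wild-type I/R replicates 2 or 3 or Tg+ I/R replicates 2 or 3 (adjusted p up to 0.263). That between pieces was lost without Tg+ I/R above replicates 1 or 2 or below replicates 2 or 3 (up to 0.152). The interactions were -0.87 ± 0.31 for genotype by surgery below (adjusted p = 0.368) and -1.26 ± 0.31 for piece by surgery in Tg+ (adjusted p = 0.484). Csrp3 ran from 2.12 to 2.69 on sham and from 1.88 to 3.03 on I/R arrays and passed in no comparison (heart means -0.08 ± 0.10, adjusted p = 0.504, 95% interval -0.30 to 0.13).

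Myomesins cross-link thick filaments and titin at the M-band. Myom1 on sham arrays lay between 1.58 and 2.18 (median 2.06). After I/R it was 1.14, 1.33 and 1.67 in wild type above, 0.72, 1.93 and 1.51 in wild type below, 1.93, 1.88 and 2.01 in Tg+ above and 1.94, 0.61 and 1.29 in Tg+ below. The weak arrays held the 5 lowest I/R values, 0.61 to 1.33, and the other 7 ran from 1.51 to 2.01.

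Myom1 fell by 0.80 ± 0.28 in Tg+ below (adjusted p = 0.0361) and by 0.49 ± 0.14 over hearts (adjusted p = 0.0140). Without the weak arrays these were -0.14, on a single I/R array, and -0.13 (adjusted p = 0.183). The Tg+ call was lost without any sham replicate or I/R replicates 2 or 3 (adjusted p up to 0.230), and the heart call without wild-type I/R above replicate 2 (adjusted p = 0.0553). Myom2 ran from 1.51 to 2.58 on 12 sham arrays and from 1.30 to 3.63 on 10 I/R arrays, with its spot flagged as an outlier and dropped from the fit on wild-type below replicate 2 and Tg+ above replicate 2. Its heart-mean difference was 0.25 ± 0.21 (adjusted p = 0.350), where those 2 hearts rest on 1 piece each, and with median centring it was -2.25 (adjusted p = 0.0174).

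The number of the 10 genes called in each I/R comparison was read against the array. In wild type above 4 passed, 1 higher and 3 lower, where 13.3% of features passed (5.97% higher, 7.31% lower). In wild type below 1 rose and 1 fell, where 5.60% passed (2.14% higher, 3.46% lower). In Tg+ above 1 rose and 3 fell, where 15.3% passed (6.95% higher, 8.37% lower). In Tg+ below 1 rose and 4 fell, where 32.5% passed (15.4% higher, 17.1% lower). With slide as a block, the only calls left in these 4 comparisons were Fhl2 in Tg+ above (-0.92, adjusted p = 0.0333) and below (-1.45, adjusted p = 0.0116) and Ldb3 in Tg+ below (-1.25, adjusted p = 0.0289). Fhl1 then had adjusted p = 0.300, 0.231, 0.296 and 0.0588 in the order above, with rises of 1.83, 2.64, 1.53 and 3.51. Between genotypes none of the 10 passed in sham hearts (0.035% of features above and 0.0262% below, with 0.0175% and 0.00875% lower) or above the ligation after I/R (0.656%). None passed between pieces in sham (0% of features) or in wild-type I/R hearts (0.0175%), nor in the genotype by surgery (0.0175% in each piece) or piece by surgery interactions (0% in each genotype). With 3 arrays a group, a p that misses the threshold does not show that values were equal.

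Partner genes of these proteins were taken as 4 lists from textbook knowledge, with earlier results of these data known, and compared over heart means. In this comparison 25.6% of all features passed higher and 25.5% lower, and the counts are to be read beside these shares. Of 24 measured Z-disc and titin spring partners (25 listed), 7 rose and 8 fell, with a median difference of 0.02. Pdlim3, a PDZ-LIM protein, rose by 1.26 ± 0.11, Synpo2l by 1.03 ± 0.27 and Ankrd2, a stretch-responsive ankyrin-repeat protein, by 0.73 ± 0.14. Fhod3, a formin that assembles sarcomeric actin, fell by 1.31 ± 0.20, Nebl, the cardiac nebulette, by 0.93 ± 0.19 and Bag3, a Z-disc co-chaperone, by 0.76 ± 0.13.

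Of 18 other LIM-domain genes measured (21 listed), 9 rose and 2 fell, with a median of 0.24. Of all features 25.6% rose and 25.5% fell. Zyx (zyxin, a focal adhesion protein) rose by 0.76 ± 0.10, Crip2 by 0.71 ± 0.23 and Csrp2 by 0.64 ± 0.12. Lims1 (PINCH, an adhesion adaptor) fell by 0.82 ± 0.07 and Ablim1 by 0.43 ± 0.16. Of 13 intercalated disc genes none rose and 8 fell, with a median of -0.31, beside the same shares of all features. Among them Dsp (desmoplakin) fell by 0.78 ± 0.13, Gja1 (connexin 43, the main ventricular gap junction protein) by 0.60 ± 0.20 and Ctnna1 by 0.56 ± 0.07.

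Of 12 M-band and thick filament partners 4 rose and 7 fell, with a median of -0.29, where 25.6% of all features rose and 25.5% fell. Trim54, which encodes MuRF3, rose by 0.84 ± 0.14, while Trim63 fell by 0.89 ± 0.22. Hsp90aa1, a chaperone of myosin folding, rose by 0.79 ± 0.17, and Sqstm1, the autophagy adaptor p62 that binds near the titin kinase, by 0.73 ± 0.13. Obsl1, a cytoskeletal adaptor, fell by 0.77 ± 0.06. These lists were not recounted with median centring, whose shift of -0.40 is larger than each of the 4 list medians.

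**Figure D4:**
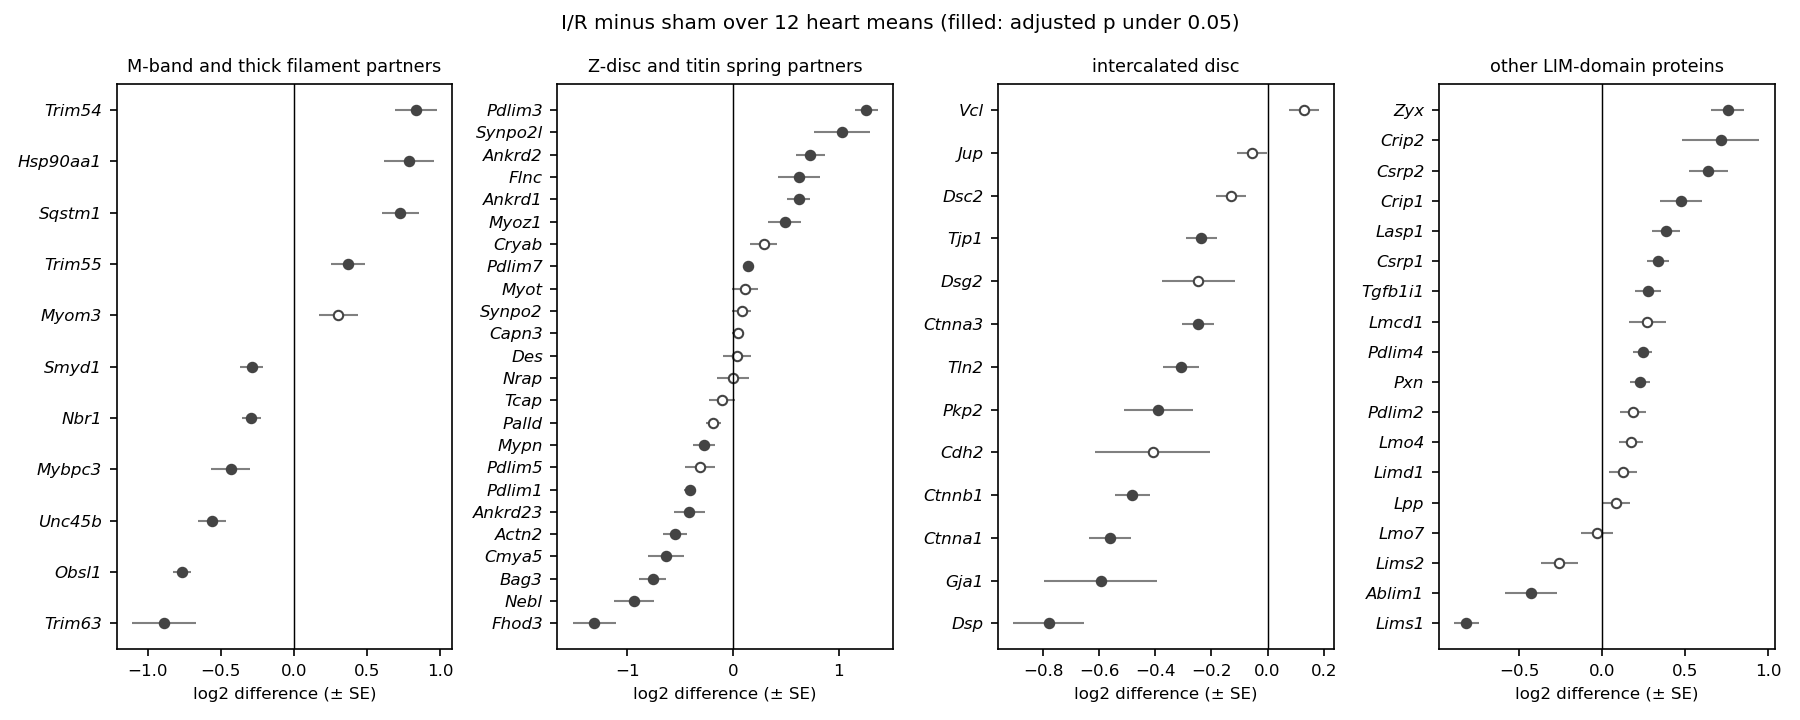
Log2 difference, I/R minus sham over 12 heart means (horizontal axis, ± SE, a scale for each panel), of the measured genes in the 4 partner lists, with 1 gene of the M-band list not drawn; filled points passed an adjusted p under 0.05. In the intercalated disc list 8 of 13 genes passed and all of these lie below 0, and in the LIM-domain list 9 of the 11 that passed lie above 0. Of all features, 51% passed in this comparison.

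Markers of other cells moved in the same hearts, over whose means 25.6% of all features passed higher and 25.5% lower. All 4 atrial markers, 6 of 7 fibroblast markers, 4 of 7 macrophage markers, 3 of 4 smooth muscle markers (Acta2 fell) and both measured neutrophil markers (of 4 listed) rose, with median differences of 2.06, 0.80, 0.30, 0.66 and 3.12. Of 6 skeletal muscle markers 4 rose and 1 fell, and of 6 endothelial markers 3 fell. Of 8 ventricular cardiomyocyte markers 3 fell (Actc1, Pln and Myh6) and Tnnt2 rose, with a median of -0.23. Below the ligation, fibroblast markers after I/R averaged -1.31, -1.10 and -1.85 on the weak arrays. The other arrays there read -3.47, -3.13 and -2.86, beside -3.30 to -2.73 on sham arrays. Above it, the I/R arrays that were not weak read -2.37 to -2.21. Skeletal muscle markers below averaged -1.02, -1.30 and -1.55 on the weak arrays and -3.08, -2.58 and -2.55 on the others (sham -2.98 to -2.25). The part of weak signal in these markers, and of cell composition in the changes of the 10 genes, was not tested.

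To see which features varied most like each gene, the root mean square difference over the arrays was taken after centring each feature. Closest to Fhl1 (SD 1.57 over arrays) were Mt1, a metallothionein, Chil3, a chitinase-like protein of myeloid cells, and Rps18, at 0.57, 0.59 and 0.60. Closest to Ldb3 (SD 0.47) were Tom1l2, Immt and Ppa2, at 0.12 each, the last 2 coding for mitochondrial proteins. Fhl2 (SD 0.58) had Fndc5, Ank1 and Slc25a13 at 0.26 to 0.28, Myoz2 (SD 0.42) had Iscu, Saraf and Eci1 at 0.17 to 0.19, and Myom1 (SD 0.44) had Cacna2d1, Rab12 and Adcy9 at 0.15 to 0.19. None of the 10 genes was among the 3 closest features of another. With 3 places among 11430 features tested, this does not show that the 10 genes varied apart.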

How the data were processed

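RNA from 24 heart pieces was measured on 2-colour Agilent arrays on 7 slides. The deposited intensity values are spot means and background medians, not normalized, per the file headers; Agilent's log10 ratio (Cy5 over Cy3) and the authors' deposited table of log2 ratio values, with centring not stated in those sources, served as alternatives. The label and source fields give Cy5 for heart RNA, while a labelling text names Cy3-CTP; Cy5 over Cy3 was used.

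In limma 3.58.1 (R 4.3.3), background was corrected with normexp (offset 50), ratios were loess-normalized within arrays, and outlier-flagged spots dropped. Of 41174 probes, 15427 were well above background in Cy5 on all arrays of at least 1 group. Symbols were updated through RefSeq (22944 probes by accession, 6664 by symbol, 3108 by older symbol, and 8458 kept the array's name). Each gene was represented by its brightest probe.

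All 24 arrays entered 1 fit of 8 group means (16 residual degrees of freedom). Heart means averaged the same-numbered pieces of a genotype and surgery (12 hearts, 4 groups, 8 residual degrees of freedom). The design text says that 2 pieces came from each heart but not that the numbers match them: their deviations correlated from -0.73 to 0.54, and below 0 in 4 of 12 hearts. The fits were tested on simulated data with 1 spread per feature for all groups and no heart, slide or weak-array effects. In the real data the median SD of a feature was 0.07 to 0.10 in sham groups and 0.12 to 0.22 in I/R groups. The simulation thus does not test the fits under such unequal spread. No 2 arrays were identical. The number of arrays limits the precision.

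The members and lists were chosen with earlier results of these data known. Genes named are all 10 members, Trim63, up to 3 increases and 3 decreases past the threshold in each partner list over heart means, and the 3 features most like a member. This names 1 decrease in the M-band list that is not reported here. Alternatives are given in the closing section.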

Additional observations from a re-analysis of the deposited data

How the results depend on the processing

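Fhl1, Fhl2 and Ldb3 kept their heart-mean calls under all 9 alternative settings run and in each of 24 fits lacking 1 array. With 4, 2, 4 and 5 of the 10 genes called for I/R in wild type above, wild type below, Tg+ above and Tg+ below, 6 over heart means and 1 each for Tg+ minus wild type below and below minus above in Tg+ after I/R, the counts moved as follows. Median centring in place of loess, which moved the median of all features over hearts by -0.40, gave 0, 0 and 0 in the first 3, 6 in Tg+ below (all lower, Fhl1 not among them), 10 over hearts and 0 in the last 2; 1.12% of called features were then higher over hearts, beside 50.1%. Slide as a block gave 0, 0, 1 and 2, and 0 in the last 2. Agilent's ratio (median shift -0.19, 32.5% of called features higher) and the authors' table each gave 1 in wild type below and 2 in Tg+ above, as did no filter on dim probes, which gave 0 for Tg+ minus wild type below. Using only the arrays of the groups compared gave 0 in wild type below and 0 in the last 2. Without the weak arrays heart means had 3. Counts for comparisons with Tg+ below or wild type above after I/R then rest on a single I/R array and are left out. Array weights gave 7 for Tg+ minus wild type below, 2 above, 5 for below minus above in Tg+ and 3 in wild type, and among the interactions 5 (genotype, below), 1 (genotype, above), 3 (piece, Tg+) and 2 (piece, wild type). Heart as a random block (correlation 0.0765) gave 1 in wild type below.

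The replicate numbers were not shown to pair samples across groups (84 pairs, median correlation -0.01). With the replicate block, wild type below had 1 call and Tg+ minus wild type below 0; it moved no other count by over 1.5 times. Over fits leaving out an array, counts ran from 1 to 4 in wild type above, 1 to 1 in wild type below, 2 to 3 in Tg+ above, 4 to 5 in Tg+ below and 4 to 7 over hearts. They ran from 0 to 2 and 0 to 6 for Tg+ minus wild type above and below after I/R, 0 to 3 and 0 to 5 for below minus above in wild type and Tg+, 0 to 3 for the genotype interaction below and 0 to 1 for the piece interaction in Tg+. Myom2 turned sign and passed with median centring, at -2.41 in Tg+ below and -2.25 over hearts, and with Agilent's ratio at -0.60 over hearts. The cause of these moves was not tested. Slide block, heart block and the restriction to compared arrays do not apply to heart means and were not run there. Weak Cy5 signal on 5 of 12 I/R arrays limits the precision of the I/R means.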
